A study of Homo sapiens with 18 samples.

Results

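Immediate early genes are switched on within minutes of a stimulus such as serum, without new protein synthesis, and their messenger RNAs are short-lived. Those described here are FOS, FOSB, JUN, JUNB, EGR1, IER2, IER3, MYC, DUSP1 and KLF6, in extracellular vesicles (EVs) and in the cells that released them. They were taken by name, as 10 of the 57865 genes to which the deposited transcript values were summed. The choice was made with earlier results of these data known. FOS, FOSB, JUN and JUNB are subunits of the AP-1 transcription factor, a dimer of a FOS and a JUN protein. EGR1, KLF6 and MYC are further DNA-binding transcription factors, DUSP1 is a phosphatase that switches off MAP kinases, and IER2 and IER3 are small proteins induced by growth factors. In many cell types ERK signalling and the serum response factor SRF drive these genes, and AU-rich elements in the 3′ untranslated region (UTR) of many of their messages mark them for rapid decay.

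The libraries came from HEK293T, a widely used cell line of human embryonic kidney origin, that had spent 24 h without serum. The 6 groups of 3 libraries were ATG7-/- EVs, ATG12-/- EVs, wild-type EVs, ATG7-/- cells, ATG12-/- cells and wild-type cells. ATG7 and ATG12 belong to the machinery that conjugates LC3 to membrane lipid, and the comparisons ask whether the RNA of EVs depends on it. Each knockout was 1 clone, F2 for ATG7-/- and D9 for ATG12-/-, so clone and genotype cannot be told apart, and EVs and cells of all 3 genotypes shared the serum-free period, so no library shows the genes before starvation or after serum.

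Values are TPM, a share of each library corrected for transcript length. TPM keep no depth, so the sequencing depth is unknown and no counting error can be given. A higher TPM in EVs cannot be told apart from less of other RNAs there. An EV library held 13255 to 14716 genes at 1 TPM or more, a cell library 18464 to 20509. Summed HEK293 markers ran from 293.1 to 490 TPM in EVs and from 97.75 to 187.4 TPM in cells, and 2 of 8 reached 1 TPM in all libraries. Among markers of other cell types, blood cell genes summed to 0 to 30.02 TPM in EVs and 9.27 to 22.5 TPM in cells, with CD3E and HBB at 0 everywhere. Fibroblast genes summed to 0.509 to 40.6 TPM in EVs and 8.11 to 26.2 TPM in cells, and liver genes to at most 3.49 TPM in EVs and 1.57 TPM in cells, with ALB at 0. The part of these markers in the results was not tested. ATG7 RNA was 11.2 to 15.6 TPM in ATG7-/- EVs and 13.3 to 19.4 TPM in wild-type EVs, and 8.06 to 12.9 TPM in ATG7-/- cells and 8.14 to 13.1 TPM in wild-type cells. ATG12 RNA was 0 to 0.858 TPM in ATG12-/- EVs and 0.844 to 22.6 TPM in wild-type EVs, and 5.18 to 9.18 TPM in ATG12-/- cells and 7.61 to 13.5 TPM in wild-type cells. None of these 4 differences passed limma's adjusted threshold, so RNA levels do not check the genotype labels.

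Of the 10 genes, 5 were higher in EVs than in cells over the 3 genotypes, and none was lower. FOS stood far above the rest, with a mean TPM 21.0 times that of cells, followed by IER3, FOSB, DUSP1 and JUN. JUNB, MYC, IER2 and KLF6 did not pass the test, and EGR1 was too low to be tested. The test was limma on log2(scaled TPM + 1), with p-values adjusted by Benjamini-Hochberg over all 24647 genes that reached 1 TPM in at least 3 of the 18 libraries, and it called 7.66% of them higher and 36.4% lower in EVs. Among the 13998 protein-coding genes tested, 11.7% were called higher and 24.2% lower. EVs and cells did not overlap, with EVs higher, in 1.95% of the genes tested, and FOS was the 1 gene of the 10 in that set. The median log2 fold change was 0.75 over the 9 genes tested, against -0.61 over all genes tested and -0.19 over protein-coding genes. Because the 10 genes were chosen with earlier results of these data known, these contrasts describe them and are no test of the set. Without scaling between libraries the median of all genes was -0.47, and the log2 fold changes of the 9 genes were higher by 0.155 to 0.27, with FOS at 3.78 and the same 5 genes called.

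**Figure D1:**
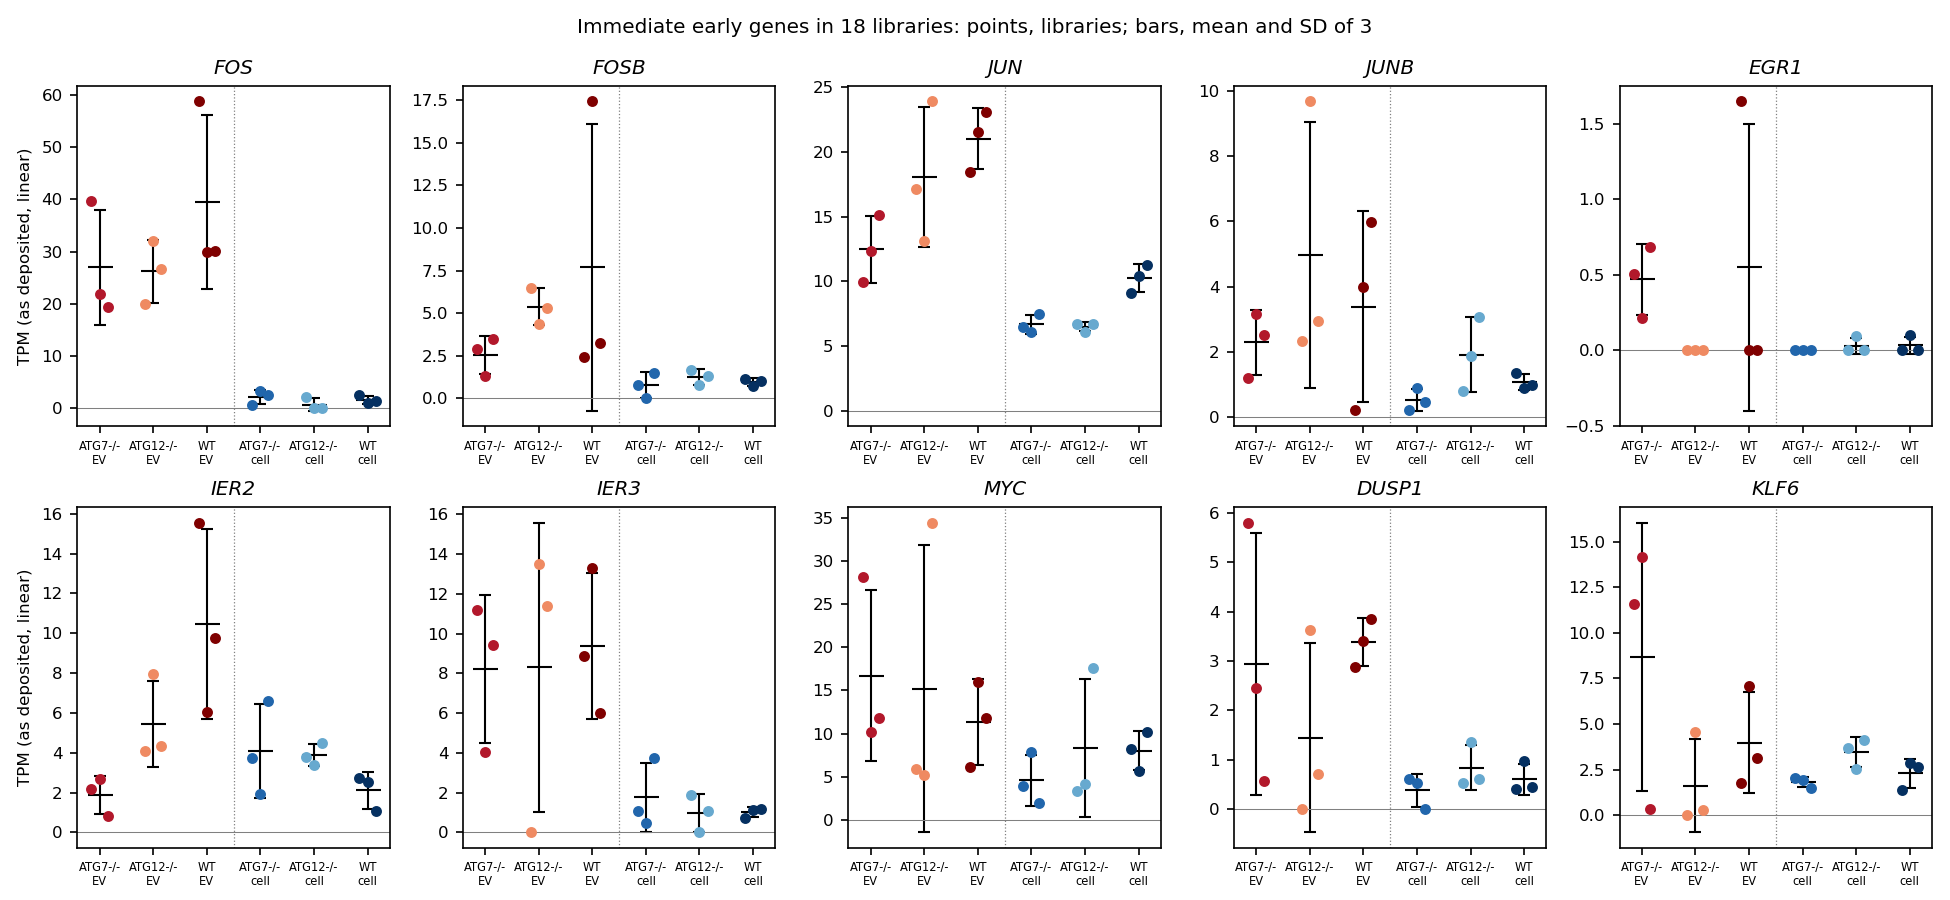
TPM as deposited (vertical axis, linear) of each of the 10 genes in the 6 groups; points are libraries, and black marks are the mean and SD of 3. All 9 EV libraries lie above all 9 cell libraries for FOS, whereas for EGR1 most libraries lie at 0.

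The FOS gene (chromosome 14, 75278774 to 75282230, plus strand, GRCh38) was the most abundant of the 10 in EVs. Its level was 39.7, 21.9 and 19.4 TPM in ATG7-/- EVs, 20.0, 32.0 and 26.8 TPM in ATG12-/- EVs and 58.7, 29.9 and 30.02 TPM in wild-type EVs. In cells it was 0.614, 3.20 and 2.55 TPM for ATG7-/-, 2.14, 0 and 0 TPM for ATG12-/- and 2.44, 0.977 and 1.33 TPM for wild type. The lowest EV library, at 19.4 TPM, was above the highest cell library, at 3.20 TPM, and 2 cell libraries listed the gene at 0. Over the 3 genotypes the log2 fold change was 3.53 (SE 0.31, adjusted p = 7.4e-07, limma, 9 EV and 9 cell libraries), the 25th highest of the 24647 genes. It was 3.02 (SE 0.53, adjusted p = 0.00229) for ATG7-/-, 4.02 (SE 0.53, adjusted p = 0.000229) for ATG12-/- and 3.54 (SE 0.53, adjusted p = 0.000395) for wild type.

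The FOS values were not assigned to the full-length message. FOS-201, the transcript of 2158 nt and 4 exons, was listed at 0 in all 18 libraries. FOS-207, a transcript of 834 nt and 2 exons, held 77.3% of the FOS TPM in EVs and 100% in cells. It ranged from 12.2 to 37.9 TPM in EVs and from 0 to 3.20 TPM in cells. A run of 207 bases, 24.8% of its length (chr14:75279670-75279876), lies in an intron of FOS-201. FOS-207 has 2 exons against 4, and the third exon of FOS-201 is among those it lacks. The 30 bases across the point where that run meets the next FOS-201 exon set FOS-207 apart from FOS-201. They are contiguous in the genome, so they do not set it apart from unspliced RNA, and the other FOS transcripts were not compared. They are shown (chr14:75279862-75279891, plus strand, GRCh38, from the GENCODE transcripts) with the intronic part in capitals:
FOS-207 boundary: TCTGTTTTGTTCTAGgacttctgcacggac
The other FOS transcripts together held 1.66 to 23.3 TPM in EVs, with a median of 5.15 TPM, and were above 0 in 9 of 9 EV libraries. They were listed at 0 in all 9 cell libraries. Single-end reads that fall in shared exons are divided among transcripts by the estimation, and the same reads give a larger TPM on a short transcript than on a long one. How far these transcript choices set the size of the FOS difference was not tested.

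FOSB, the close relative of FOS (chromosome 19, 45467995 to 45475179), was also higher in EVs, at a lower level. It had 2.90, 1.31 and 3.46 TPM in ATG7-/- EVs, 6.50, 4.36 and 5.29 TPM in ATG12-/- EVs and 2.41, 17.4 and 3.26 TPM in wild-type EVs. The cells had 0.798, 0 and 1.52 TPM for ATG7-/-, 1.69, 0.788 and 1.30 TPM for ATG12-/- and 1.14, 0.711 and 1.04 TPM for wild type. Of the 9 EV libraries, 8 were above all cell libraries, and 1 wild-type EV library was far above the rest. The log2 fold change of EVs over cells was 1.23 (SE 0.32, adjusted p = 0.00695, limma). No single genotype passed on its own, with 0.92 (adjusted p = 0.307) for ATG7-/-, 1.37 (adjusted p = 0.125) for ATG12-/- and 1.39 (adjusted p = 0.0815) for wild type. Several transcripts shared the signal, and FOSB-203, of 3346 nt, held 41.6% of it in EVs and 11.1% in cells.

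JUN (chromosome 1, 58780788 to 58784327, minus strand) has 1 annotated transcript, so its values rest on no choice between isoforms. It stood at 9.94, 12.4 and 15.1 TPM in ATG7-/- EVs, 17.1, 13.1 and 23.9 TPM in ATG12-/- EVs and 18.5, 21.5 and 23.1 TPM in wild-type EVs. In cells it stood at 6.44, 6.12 and 7.48 TPM for ATG7-/-, 6.74, 6.09 and 6.71 TPM for ATG12-/- and 9.11, 10.4 and 11.2 TPM for wild type. It was the most abundant of the 10 genes in cells, with a mean of 7.82 ± 1.95 TPM (SD, n = 9), and its EV mean was 17.2 ± 4.95 TPM (SD, n = 9). The log2 fold change of EVs over cells was 0.75 (SE 0.18, adjusted p = 0.00379, limma). Within genotypes the test passed for ATG12-/- (1.17, SE 0.31, adjusted p = 0.0268) and not for ATG7-/- (0.59, adjusted p = 0.229) or wild type (0.50, adjusted p = 0.254), and the tests of the difference between genotypes did not pass. The ATG12-/- call was lost without any 1 of 4 of its 6 libraries, with adjusted p of 0.0707 without cell replicate 1, 0.0884 without cell replicate 2, 0.0696 without cell replicate 3 and 0.0753 without EV replicate 3.

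JUNB (chromosome 19, 12791496 to 12793315, plus strand), the fourth AP-1 gene, was low and scattered. It ranged from 0.216 to 9.67 TPM in EVs with a median of 2.94 TPM, and from 0.229 to 3.09 TPM in cells with a median of 0.909 TPM. The log2 fold change of EVs over cells was 0.74 (SE 0.34) and did not pass (adjusted p = 0.0895, limma). JUNB was called in 1 of 25 alternatives, the one without its lowest EV library, wild-type replicate 1. There the value was 0.98 with an adjusted p of 0.0138 (limma). Over all alternatives the adjusted p ranged from 0.0138 to 0.167. By mean TPM in EVs the order of these was JUN, then FOSB, then JUNB. The range of FOSB, 1.31 to 17.4 TPM, overlapped both that of JUN, 9.94 to 23.9 TPM, and that of JUNB.

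IER3 (chromosome 6, 30743199 to 30744554, minus strand), a small stress-induced protein that affects cell survival, was the second of the 10 by fold change. It had 11.2, 4.06 and 9.42 TPM in ATG7-/- EVs, 0, 13.5 and 11.4 TPM in ATG12-/- EVs and 8.88, 13.3 and 5.997 TPM in wild-type EVs. The cells had 1.08, 0.471 and 3.75 TPM for ATG7-/-, 1.88, 0 and 1.08 TPM for ATG12-/- and 0.717, 1.15 and 1.17 TPM for wild type. Of the 9 EV libraries, 8 lay above every cell library, and ATG12-/- EV replicate 1 listed the gene at 0. The log2 fold change of EVs over cells was 1.71 (SE 0.47, adjusted p = 0.00852, limma). Within genotypes it was 1.65 (adjusted p = 0.198) for ATG7-/-, 1.52 (adjusted p = 0.238) for ATG12-/- and 1.96 (adjusted p = 0.0884) for wild type.

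DUSP1 (chromosome 5, 172768090 to 172771195, minus strand) was measured at 5.80, 2.46 and 0.557 TPM in ATG7-/- EVs, 0, 3.63 and 0.712 TPM in ATG12-/- EVs and 2.88, 3.41 and 3.85 TPM in wild-type EVs. In cells it ranged from 0 to 1.36 TPM with a median of 0.530 TPM. It reached 1 TPM in 6 of 9 EV libraries and in 1 of 9 cell libraries, so it entered the test mainly through EVs. Its log2 fold change of 0.81 (SE 0.31) was just past the threshold, with an adjusted p of 0.0458 (limma). The call was lost in 17 of 25 alternatives, with adjusted p from 0.0147 to 0.131 over all of them. Leaving out 1 library lost it 13 times of 18, with adjusted p of 0.0521 to 0.0864, the exceptions being EV replicate 3 of ATG7-/-, EV replicates 1 and 3 of ATG12-/-, and cell replicate 2 of ATG12-/- and of wild type.

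IER2 (chromosome 19, 13150415 to 13154908, plus strand) had EV levels that differed between the genotypes more than its cell levels did by mean TPM. It had 2.16, 2.66 and 0.806 TPM in ATG7-/- EVs, 4.09, 7.96 and 4.35 TPM in ATG12-/- EVs and 15.5, 6.07 and 9.75 TPM in wild-type EVs. The cells had 3.73, 1.95 and 6.61 TPM for ATG7-/-, 3.79, 3.38 and 4.48 TPM for ATG12-/- and 2.72, 2.54 and 1.06 TPM for wild type. In EVs the wild-type libraries were above the ATG7-/- libraries without overlap, and in cells the ranges of ATG7-/- and wild type overlapped. Between ATG7-/- and wild-type EVs, 13.9% of all genes tested did not overlap, in either direction. EVs over cells came to a log2 fold change of 0.25 (SE 0.28, adjusted p = 0.485, limma) over the 3 genotypes. For wild type alone it was 1.45 (SE 0.48, adjusted p = 0.0404), against -0.94 (SE 0.48, adjusted p = 0.221) for ATG7-/- and 0.24 (SE 0.48, adjusted p = 0.781) for ATG12-/-. The wild-type call was lost in 8 of 13 alternatives, with adjusted p from 0.0155 to 0.158 over all 13. These included 5 of the 6 left-out libraries, with adjusted p of 0.0609, 0.0626 and 0.158 without cell replicates 1, 2 and 3, and of 0.123 and 0.0736 without EV replicates 1 and 3.

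MYC and KLF6 were measured in most libraries without a difference that passed. MYC (chromosome 8, 127735434 to 127741434, plus strand) ranged from 5.23 to 34.4 TPM in EVs with a median of 11.8 TPM, and from 1.92 to 17.6 TPM in cells with a median of 5.68 TPM, giving a log2 fold change of 0.64 (SE 0.40, adjusted p = 0.208, limma). In both EVs and cells the highest MYC value was that of ATG12-/- replicate 3. KLF6 (chromosome 10, 3775996 to 3785281, minus strand) ranged from 0 to 14.2 TPM in EVs and from 1.38 to 4.15 TPM in cells, with a log2 fold change of -0.03 (SE 0.46, adjusted p = 0.963). The noncoding transcript KLF6-202 of 744 nt held 61.5% of the KLF6 TPM in EVs and 34.9% in cells. IER3, DUSP1 and KLF6 were all listed at 0 in ATG12-/- EV replicate 1, which had 5.91 TPM of MYC and 20.0 TPM of FOS.

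EGR1 (chromosome 5, 138465490 to 138469315, plus strand), the founding member of the EGR zinc-finger factors, was nearly absent from the values. It had 0.508, 0.215 and 0.683 TPM in ATG7-/- EVs and was listed at 0 in all 3 ATG12-/- EV libraries, and wild-type EVs had 1.65, 0 and 0 TPM. In cells it was listed at 0 in 7 of 9 libraries and reached at most 0.0989 TPM. It reached 1 TPM in 1 of the 18 libraries and was therefore not tested. An exact 0 in such values can be a failed estimate, and no limit can be set on it without counts.

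**Figure D2:**
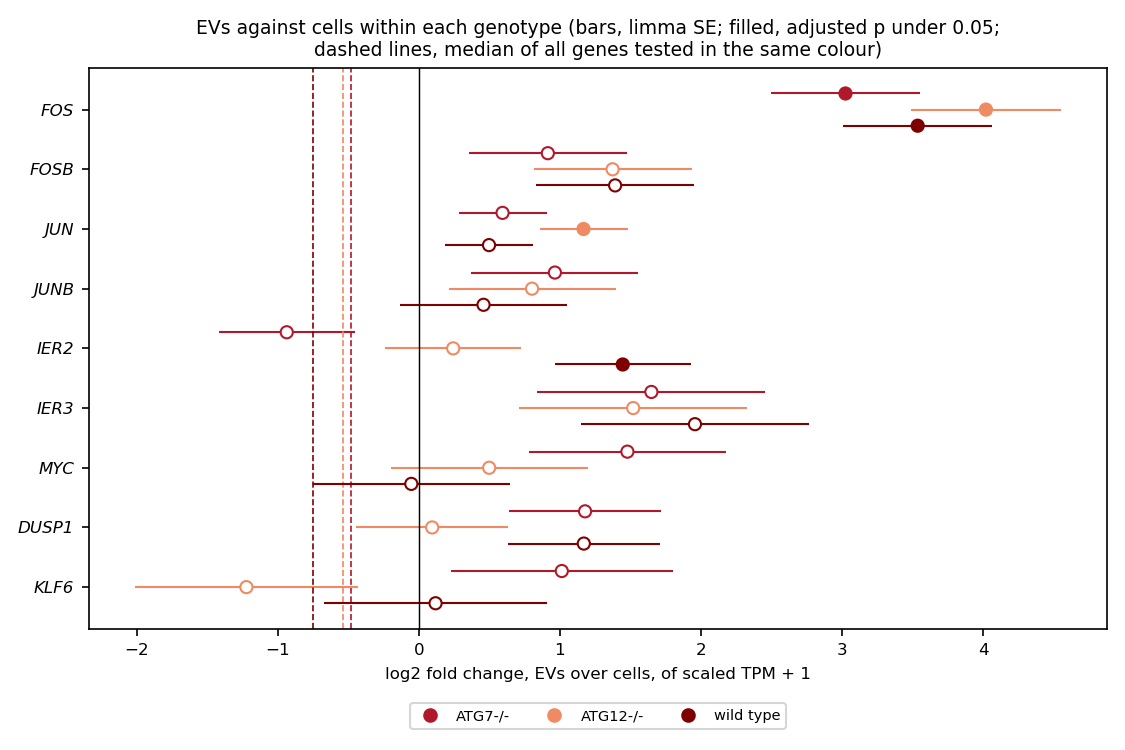
Log2 fold change of EVs over cells (horizontal axis, of scaled TPM + 1) for the 9 genes tested, within ATG7-/-, ATG12-/- and wild type; bars are limma's standard errors, filled points passed an adjusted p of 0.05, and dashed lines are the medians of all genes tested (-0.48, -0.54 and -0.75). FOS is filled in each genotype, JUN in ATG12-/- and IER2 in wild type.

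Within a genotype, 1 gene was called higher in ATG7-/- EVs than in ATG7-/- cells (FOS), 2 in ATG12-/- EVs than in ATG12-/- cells (FOS and JUN) and 2 in wild-type EVs than in wild-type cells (FOS and IER2). Limma called 2.71% of all genes tested higher for ATG7-/-, 2.27% for ATG12-/- and 4.03% for wild type, where 20.7% were called lower. In number these were 668, 559 and 994 genes, and leaving out 1 library lowered them to as few as 395 without ATG7-/- cell replicate 1, 298 without ATG12-/- cell replicate 1 and 632 without wild-type cell replicate 3. Of the 9 genes tested, 8 had a log2 fold change above 0 in each genotype, though not the same 8, since IER2 was below 0 for ATG7-/-, KLF6 for ATG12-/- and MYC for wild type. The median over the 9 genes was 1.01 for ATG7-/-, 0.80 for ATG12-/- and 1.17 for wild type, against -0.48, -0.54 and -0.75 over all genes tested. Over the 13998 protein-coding genes tested the median was -0.15, -0.24 and -0.26, with 536, 444 and 875 of them called higher. In the same order, 34.1%, 29.7% and 29% of all genes tested were above 0, and 44.4%, 40.4% and 41.9% of protein-coding genes.

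No difference between knockout and wild type passed the test for any of the 10 genes, in EVs or in cells. Limma called 0 of 9 genes tested in ATG7-/- EVs against wild-type EVs, where 0.141% of all 17076 genes tested were called, and 0 of 9 in ATG12-/- EVs, where 0.105% were called. It called 0 of 8 in ATG7-/- cells against wild-type cells, with 0.2% of 22471 genes called, and 0 of 8 in ATG12-/- cells, with 0.134%. EGR1 was not tested in either, and DUSP1 was not tested in cells. At an unadjusted p under 0.05 there was 1 gene in ATG7-/- EVs (IER2), 0 in ATG12-/- EVs, and 1 (JUN) in the cells of each knockout. None was called under any of the 14 alternatives, limma with sample weights among them. So few genes were called in these comparisons at all that a count of 0 among 10 does not set them apart. A p that misses the threshold does not show equal levels.

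JUN was below wild type in every library of knockout cells. Its mean was 6.68 ± 0.711 TPM in ATG7-/- cells and 6.51 ± 0.369 TPM in ATG12-/- cells, against 10.3 ± 1.08 TPM in wild-type cells (SD, n = 3 each). The log2 fold change was -0.49 (SE 0.21, adjusted p = 0.343, limma) in ATG7-/- cells and -0.55 (SE 0.21, adjusted p = 0.286) in ATG12-/- cells, which share the wild-type cell libraries. The 3 libraries of each knockout were below all 3 of wild type. Of all genes tested, 19.9% did not overlap in either direction in ATG7-/- cells, 23.6% in ATG12-/- cells and 13.9% in ATG7-/- EVs. In EVs the means were 12.5 ± 2.60 TPM for ATG7-/-, with no overlap with wild type, 18.1 ± 5.43 TPM for ATG12-/- and 21.0 ± 2.33 TPM for wild type (SD, n = 3 each), with log2 fold changes of -0.63 (SE 0.47, adjusted p = 0.824) and -0.17 (SE 0.47, adjusted p = 0.95). None of these passed.

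IER2 had the largest fold change of the 9 genes tested in ATG7-/- EVs against wild-type EVs. Its mean was 1.88 ± 0.960 TPM in ATG7-/- EVs, against 10.4 ± 4.77 TPM in wild-type EVs (SD, n = 3 each), a log2 fold change of -1.88 (SE 0.66, adjusted p = 0.553, limma). In ATG12-/- EVs the mean was 5.47 ± 2.16 TPM and the log2 fold change -0.72 (SE 0.66, adjusted p = 0.823). In cells the fold changes had the other sign, 0.70 (SE 0.40, adjusted p = 0.451) for ATG7-/- and 0.71 (SE 0.40, adjusted p = 0.441) for ATG12-/-. The difference of the EV-to-cell fold change between ATG7-/- and wild type was -2.38 (SE 0.68, adjusted p = 0.236), and between ATG12-/- and wild type it was -1.20 (SE 0.68, adjusted p = 0.589). Of the 9 genes tested, limma called 0 in either of these interaction tests, where 0.284% and 0.268% of all genes tested were called. At an unadjusted p under 0.05 there was 1 for ATG7-/- (IER2) and 0 for ATG12-/-, and 19 alternatives called none.

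FOS had log2 fold changes of -0.44 (SE 0.47, adjusted p = 0.897, limma) in ATG7-/- EVs and -0.45 (SE 0.47, adjusted p = 0.849) in ATG12-/- EVs against wild-type EVs, with overlapping libraries in both. The widest errors belonged to KLF6 and IER3, with SEs of 1.08 and 1.00 in EVs, so only very large changes of these could have passed. Groups did not overlap for JUN and IER2 in ATG7-/- EVs (13.9% of all genes tested in either direction), for none of the genes tested in ATG12-/- EVs (11.3%), for JUN and JUNB in ATG7-/- cells (19.9%) and for JUN and IER2 in ATG12-/- cells (23.6%). A count of 2 among 8 or 9 genes tested is close to those shares. JUNB had 0.229, 0.895 and 0.475 TPM in ATG7-/- cells, against 1.36, 0.909 and 0.992 TPM in wild-type cells (log2 fold change -0.43, SE 0.35, adjusted p = 0.612).

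**Figure D3:**
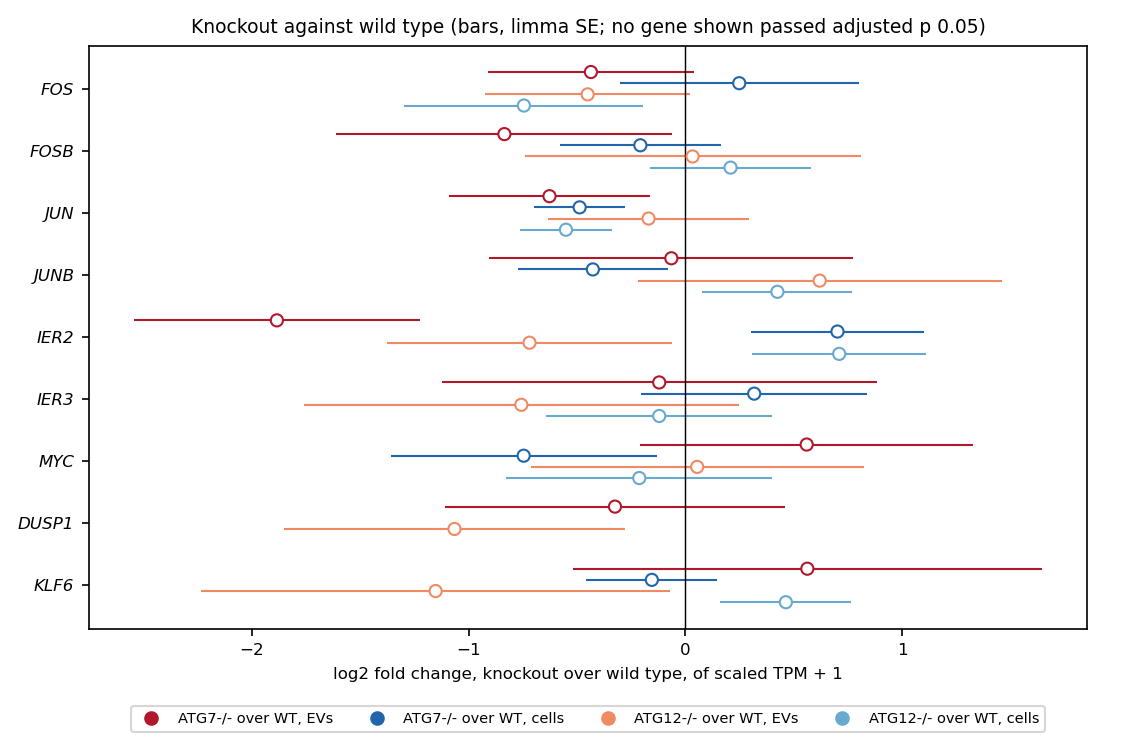
Log2 fold change of knockout over wild type (horizontal axis, of scaled TPM + 1) in EVs and in cells for the 9 genes tested in EVs, of which DUSP1 was not tested in cells; bars are limma's standard errors and all points are open because none passed. IER2 lies at -1.88 in ATG7-/- EVs and at 0.70 in ATG7-/- cells.

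Transcripts on the opposite strand overlap exons of 3 of the 10 genes, and on average all were more abundant than the gene itself. HOOK2-224, a retained-intron transcript of 585 nt of which 259 lie opposite JUNB, had 107 ± 59.6 TPM in EVs and 35.5 ± 16.7 TPM in cells (SD, n = 9 each), 30.1 times JUNB in both, and was the higher of the pair in 18 of 18 libraries. The 2 transcripts of AC011446.2, which lie wholly opposite IER2, summed to 76.6 ± 39.4 TPM in EVs and 106 ± 21.3 TPM in cells (SD, n = 9 each), 12.9 and 31.6 times IER2, and were higher in 18 of 18. IER3-AS1, with 359 of 527 nt opposite IER3, had 43.6 ± 23.9 TPM in EVs and 16.3 ± 6.76 TPM in cells (SD, n = 9 each), 5.04 and 13 times IER3, and was higher in 17 of 18. Among all overlapping pairs of an antisense and a coding gene with at least 1 TPM, the antisense gene was the higher in 49.3% of 2653 pairs in EVs and in 59% of 2767 in cells. The library kit keeps the strand, but the strand setting used for the deposited values is not given in the sources used here. If it was opposite to the kit's, the values of all 10 genes would come from reads of the other strand, and for JUNB, IER2 and IER3 they cannot be told apart from those of the overlapping transcripts without that setting.

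**Figure D4:**
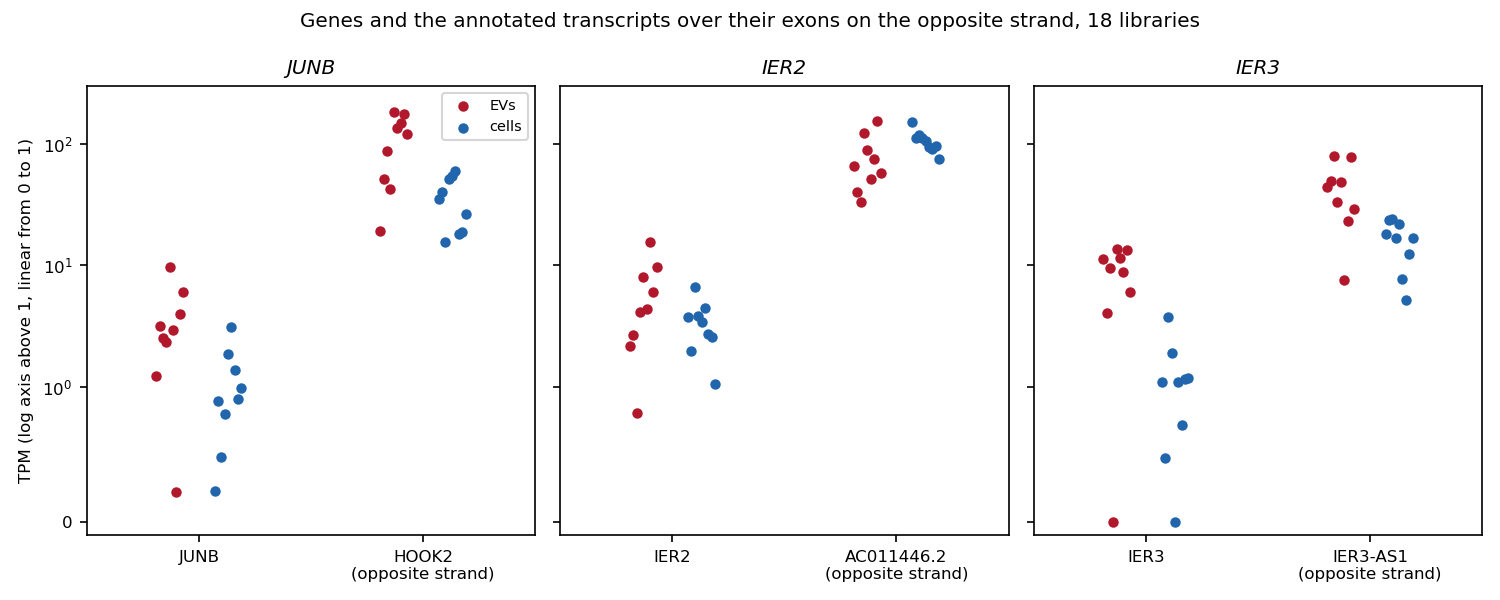
TPM in 18 libraries (vertical axis, logarithmic above 1 and linear below) of JUNB, IER2 and IER3 and of the annotated transcripts that overlap their exons on the opposite strand; points are libraries, EVs left of cells. The opposite-strand transcripts lie above the gene in 18, 18 and 17 of 18 libraries.

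AU-rich elements contain the pentamer ATTTA, which was counted on the sense strand of the longest annotated 3′ UTR of each gene, stop codon included. FOS had 5 in 809 nt, IER3 6 in 906 nt, KLF6 6 in 3559 nt, MYC 4 in 479 nt, DUSP1 4 in 675 nt, FOSB 3 in 2170 nt and JUN 3 in 1290 nt. JUNB had 2, EGR1 1 and IER2 0. At least 2 were present in 8 of the 10 genes (80%) and in 56.1% of 13813 coding genes tested between EVs and cells, whose 3′ UTRs were longer, with a median of 1332 nt against 979 nt. Per kilobase the median was 3.15 for the 10 genes and 1.58 for the coding genes. These counts describe the annotation and not the transcripts that carried the TPM. The transcript with the longest 3′ UTR was listed at 0 in all 18 libraries for FOS and IER3 and in all 9 EV libraries for FOSB and MYC.

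Sites from 4 of the 5 genes called higher in EVs are shown as annotated in the GENCODE transcripts (GRCh38). Each is 30 bases of the 3′ UTR in the direction of the gene, with ATTTA in capitals, or overlapping copies of it run together. They lie at chr14:75282047-75282076 on the plus strand for FOS, and on the minus strand at chr6:30743655-30743684 for IER3, chr5:172768651-172768680 for DUSP1 and chr1:58781348-58781377 for JUN.
FOS: aaacgttttattgtgtttttaATTTATTTA
IER3: ttgctcctaattaatATTTAtatgtATTTA
DUSP1: ggctcgagagggctggtccttATTTATTTA
JUN: tgtttctgaaaattccagaaaggatATTTA
FOS and DUSP1 hold the overlapping pair ATTTATTTA, IER3 holds 2 separate copies in its window and JUN 1. FOSB, also called higher, is not shown, and the windows do not hold every ATTTA of these UTRs.

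Proximal promoters, 250 bases before to 50 after the start, were given by RefSeq (GRCh38.p14) for 8 of the 10 genes, leaving out MYC and IER3. The 6 motifs below were searched on both strands. TATAAA, the core of the TATA box, was in 4 of the 8 (FOS, FOSB, JUNB and DUSP1) and in 11.5% of 35116 promoters. TGACG, the half-site bound by CREB and ATF factors, was in 7 of 8 and in 24.6% of promoters, and the full site TGACGTCA, which contains it, was in DUSP1 and in 1.85%. TGACTCA, the AP-1 site, was in none of the 8 and in 4.95% of promoters. The CArG box bound by SRF was in EGR1 and in 1.29%, and GCGGGGGCG, the site of EGR factors, was in KLF6 and in 5.07%. Matches are letters in these windows and not measured binding. Bases further upstream were not searched, so a motif missing here can still lie near the gene. The search therefore does not show whether FOS or the other genes have a CArG box outside the window. The windows follow RefSeq's starts, which can differ from those of the GENCODE transcripts behind the values. All 300 bases of the JUN window lie inside the GENCODE transcript of JUN, so its letters are not those before the GENCODE start, and 104 of the 300 bases of the FOS window lie inside FOS-201. The window of FOS (chr14:75278578-75278877, plus strand) is shown because FOS had the largest fold change of the 10 genes, with TGACG and TATAAA in capitals:
FOS promoter: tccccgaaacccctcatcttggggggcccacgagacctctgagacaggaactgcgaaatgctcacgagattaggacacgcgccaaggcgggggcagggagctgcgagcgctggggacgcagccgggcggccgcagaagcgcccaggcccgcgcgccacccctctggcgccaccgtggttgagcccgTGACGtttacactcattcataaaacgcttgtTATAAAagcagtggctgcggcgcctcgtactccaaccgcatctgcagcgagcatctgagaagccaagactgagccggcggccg
It holds TGACG and TATAAA once each.

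A longer list of 49 other immediate early and fast-responding genes was measured beside the 10. Of its members 32 were tested, 26 had a log2 fold change of EVs over cells above 0, 11 were called higher and 1 lower, and the median was 0.67. Among all genes tested 29% were above 0, 7.66% were called higher and 36.4% lower. For protein-coding genes these shares were 42.4%, 11.7% and 24.2%. This list too was chosen with earlier results of these data known. The lists described here share genes with one another, JUND, FOSL1 and FOSL2 with the AP-1 partners, SRF with the MAP kinase and SRF pathway, and ZFP36 with the proteins that act on AU-rich elements. The genes called higher were ATF3, NFKBIA, JUND, CSRNP1, GADD45B, SRF, RHOB, DUSP2, PPP1R15A, SPRY2 and HES1. CSRNP1 and DUSP2 reached 1 TPM in 6 and 5 of 9 EV libraries and in 0 of 9 cell libraries, so they entered the test through EVs alone, and GADD45B reached it in 8 of 9 EV libraries and 2 of 9 cell libraries. ATF3, a stress-induced ATF factor, averaged 24.3 ± 6.91 TPM in EVs and 6.07 ± 3.21 TPM in cells (SD, n = 9 each), with a log2 fold change of 1.64 (SE 0.24, adjusted p = 9.28e-05, limma). JUND, the third JUN protein, averaged 25.0 ± 21.7 TPM in EVs and 5.05 ± 2.02 TPM in cells (log2 fold change 1.64, SE 0.32, adjusted p = 0.000952). Neither gene overlapped between EVs and cells, with EVs higher, as in 1.95% of all genes tested. NFKBIA, the inhibitor of NF-kappa-B, averaged 85.7 ± 38.8 TPM in EVs and 27.1 ± 11.4 TPM in cells (1.29, SE 0.23, adjusted p = 0.000574), and 98.1% of its TPM came from NFKBIA-206, a retained-intron transcript of 381 nt. PLK3, a polo-like kinase, was lower in EVs, with 5.35 ± 4.14 TPM against 10.9 ± 4.08 TPM in cells (-1.53, SE 0.44, adjusted p = 0.0121). AREG, EGR4 and SIK1 were listed at 0 in all 18 libraries.

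The kinases and factors upstream of these genes were measured as 26 genes of the MAP kinase and SRF pathway, all tested. In EVs 8 were called higher and 2 lower, beside 11.7% and 24.2% of protein-coding genes, and the median log2 fold change was 0.39. Among them were MAPK9, ELK1, MAP2K2, SRF, MAPK3 and ARAF. ELK1, the ETS factor that binds with SRF at the FOS promoter, averaged 17.9 ± 6.45 TPM in EVs and 4.13 ± 1.40 TPM in cells (SD, n = 9 each; log2 fold change 1.61, SE 0.23, adjusted p = 7.91e-05, limma). SRF itself averaged 17.1 ± 4.72 TPM in EVs and 8.65 ± 3.10 TPM in cells (0.66, SE 0.18, adjusted p = 0.0083). MAPK3, which encodes an ERK kinase, averaged 103 ± 32.8 TPM in EVs and 47.9 ± 15.5 TPM in cells (0.81, SE 0.22, adjusted p = 0.00922). MAPK9 stood at 8416 ± 593 TPM in EVs and 1606 ± 321 TPM in cells, and 99.9% of it came from MAPK9-209, a retained-intron transcript of 2395 nt, so the value is in effect that of 1 noncoding transcript. CREB1 and RPS6KA5 were lower in EVs (-2.35, SE 0.45, adjusted p = 0.000796, and -1.13, SE 0.25, adjusted p = 0.0023).

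**Figure D5:**
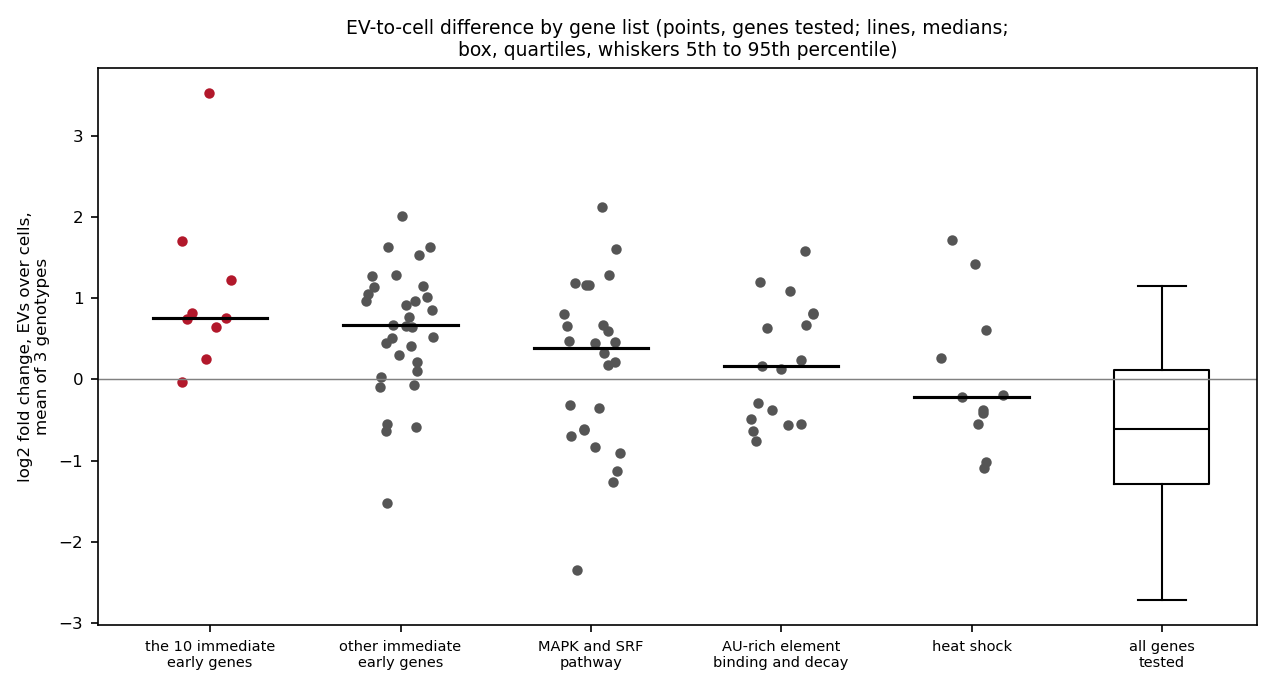
Log2 fold change of EVs over cells, mean of the 3 genotypes (vertical axis), for the genes tested in each list; points are genes, lines are medians, and the box for all genes tested shows quartiles with whiskers at the 5th and 95th percentiles. The medians are 0.75 for the 10 genes, 0.67 for the other immediate early genes and -0.61 for all genes tested.

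Neither list held a gene called between knockout and wild type, in EVs or in cells. Of all genes tested, 0.141% were called in ATG7-/- EVs, 0.105% in ATG12-/- EVs, 0.2% in ATG7-/- cells and 0.134% in ATG12-/- cells. Among the other immediate early genes NFKBIA had the smallest p in ATG7-/- EVs, with 38.6 ± 5.57 TPM against 112 ± 22.8 TPM in wild-type EVs (SD, n = 3 each; log2 fold change -1.40, SE 0.33, adjusted p = 0.241, limma). In cells SRF had the smallest p in both knockouts, with 10.8 ± 3.18 TPM in ATG7-/- cells and 9.90 ± 0.556 TPM in ATG12-/- cells, against 5.18 ± 0.721 TPM in wild-type cells (0.97, adjusted p = 0.166, and 0.85, adjusted p = 0.212). The libraries did not overlap in any of these 3 cases. Of all genes tested, 13.9% did not overlap in either direction in ATG7-/- EVs, 19.9% in ATG7-/- cells and 23.6% in ATG12-/- cells.

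The genes whose profile over the 18 libraries was most like that of FOS were sought by the root-mean-square difference of centred log2(scaled TPM + 1) among 6913 protein-coding genes with at least 5 TPM on average. The 5 nearest were SH3PXD2A (0.740), TRAK2 (0.764), RPL10 (0.777), HJURP (0.784) and RPS2 (0.786), where a flat profile would differ by 1.87. The profile of FOS is mostly its EV-to-cell difference, so the search returns genes with a difference of similar size. Whether they vary with FOS within EVs or within cells was not tested. SH3PXD2A averaged 43.2 ± 10.7 TPM in EVs and 3.28 ± 0.933 TPM in cells, and TRAK2 33.8 ± 8.49 TPM in EVs and 0.549 ± 0.290 TPM in cells (SD, n = 9 each). RPL10 and RPS2, ribosomal protein genes, were far more abundant, at 1361 ± 193 and 2487 ± 388 TPM in EVs and 138 ± 67.6 and 245 ± 109.6 TPM in cells. The other 9 genes were left out of this search.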

How the data were processed

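Large-RNA libraries from EVs and cells were deposited by the authors as 1 table of TPM for 203027 transcripts in 18 libraries, each column summing to 1000000. Salmon 0.14 and DESeq2 are named in the submitters' processing notes without a role. The build, annotation and strand setting behind the values are not given there. Per the labels' protocols, total RNA was isolated with a NucleoSpin kit, and stranded libraries were read as single ends.

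Transcripts were matched without version to GENCODE release 29 (202941 matched, 86 not, at most 0.0384% of a library) and summed to 57865 genes. Median-of-ratios scaling used genes that reached 1 TPM in every library of a fit. Genes reaching 1 TPM in 3 or more of its libraries were tested on log2(scaled TPM + 1) by limma (version 3.58.1, R 4.3.3) using a trended prior variance, without blocking on replicate number. Such fold changes understate the change of low genes. Knockouts were compared over 9 EV or 9 cell libraries, EVs with cells over all 18. P-values are both-sided, adjusted over all genes tested, threshold 0.05. They measure the spread between 3 libraries a group, labelled biological replicates. The fit was also run on simulated data, whose outcome is not given here. Its changes were large and placed only in genes well above the filter, so it does not cover low genes or small changes.

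The 10 genes and all lists were chosen with earlier results of these data known. The rule named from the lists all genes called between EVs and cells, of which a few are given with values and some are not reported here, and up to 3 with the smallest p otherwise; MAPK9-209 and NFKBIA-206 were looked up after the values were seen. Alternatives were a pseudocount of 0.1, no filter, no scaling, leaving out mitochondrial and small noncoding RNA, sample weights without a trend, a replicate block, protein-coding transcripts only, 1 fit on 18 libraries for the knockouts, and leaving out each library.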

Additional observations from a re-analysis of the deposited data

How the results depend on the processing

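Over 25 alternatives, FOS (log2 fold change 3.29 to 4.67), FOSB (0.99 to 1.93), IER3 (1.495 to 2.24) and JUN (0.55 to 1.02) remained called higher in EVs than in cells. In wild-type EVs against wild-type cells, 2 genes were called; 4 were called without scaling, 1 with protein-coding transcripts only, 1 with a pseudocount of 0.1 and 1 with the replicate block, and 1 to 2 with a library left out. In ATG12-/- EVs against ATG12-/- cells, 1 to 3 were called with a library left out. The log2 fold change of KLF6 between EVs and cells turned positive without scaling (0.16) and with protein-coding transcripts only (0.02), and ranged from -0.26 to 0.34 with a library left out. That of JUN in ATG12-/- EVs against wild-type EVs ranged from -0.355 to 0.018 with a library left out. The cause of these changes was not tested. No pairing by replicate number was seen in the values. Over 45 same-numbered pairs the correlation of deviations was -0.0336 to 0.0472, and 4 of 18 libraries were closest to their own number. Deviations from means of 3 libraries are noisy, so this does not show that same-numbered libraries were prepared apart. With the block, IER2 in wild type was lost (adjusted p = 0.0549, limma). Over all genes, the block lowered the number called against wild type from 24 to 9 in ATG7-/- EVs and from 18 to 3 in ATG12-/- EVs. In cells the number fell from 45 to 13 for ATG7-/- and from 30 to 12 for ATG12-/-.

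Counts over all genes moved as well. Over the alternatives that kept all libraries, 5 to 150 genes were called in ATG7-/- EVs against 24 in the main test, 1 to 139 in ATG12-/- EVs against 18, 5 to 152 in ATG7-/- cells against 45 and 3 to 104 in ATG12-/- cells against 30. Between EVs and cells 3888 to 11237 were called, against 10871. Those called higher numbered 315 to 830 against 668 for ATG7-/-, 264 to 660 against 559 for ATG12-/- and 499 to 1575 against 994 for wild type. The interaction tests called 0 to 72 against 70 for ATG7-/- and 2 to 78 against 66 for ATG12-/-. Without counts, precision rests on the spread between libraries alone.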

Other observations

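RNA-binding proteins that act on AU-rich elements and decay enzymes were measured as 17 genes, all tested. The list shares ZFP36 with the other immediate early genes. Of these, CNOT7, a deadenylase subunit, KHSRP and TIAL1 were called higher in EVs than in cells, none was lower over the 3 genotypes, and the median log2 fold change was 0.17. Among protein-coding genes 11.7% were called higher and 24.2% lower, and of all genes tested 7.66% and 36.4%. KHSRP, which promotes decay of AU-rich messages, averaged 86.2 ± 31.9 TPM in EVs and 38.4 ± 9.36 TPM in cells (SD, n = 9 each; log2 fold change 0.82, SE 0.21, adjusted p = 0.00535, limma). ELAVL1, which binds and stabilises such messages, averaged 63.3 ± 15.8 TPM in EVs and 62.3 ± 8.44 TPM in cells over the 3 genotypes. Within wild type it was called lower in EVs, with 45.9 ± 9.94 TPM in wild-type EVs and 63.3 ± 3.40 TPM in wild-type cells (SD, n = 3 each; -0.97, SE 0.27, adjusted p = 0.0188, limma), where 20.7% of all genes tested were called lower.

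Of 11 heat shock genes, another fast-responding set, HSPA8 and HSPB1 were called higher in EVs and DNAJB1 lower, with a median log2 fold change of -0.21, beside the same shares of protein-coding genes called. HSPA8, the constitutive HSP70, averaged 223 ± 34.5 TPM in EVs and 74.4 ± 38.1 TPM in cells (SD, n = 9 each; 1.43, SE 0.17, adjusted p = 1.94e-05, limma). DNAJB1 averaged 37.1 ± 15.8 TPM in EVs and 60.4 ± 4.89 TPM in cells (-1.09, SE 0.18, adjusted p = 0.000241). Of 12 partners of AP-1 and MYC proteins, 11 were tested. ATF4, ATF2 and JUND were called higher in EVs and none lower, beside 11.7% and 24.2% of protein-coding genes. Of the 12 partners, JUND, FOSL1 and FOSL2 are also among the other immediate early genes. ATF4 averaged 618 ± 129.8 TPM in EVs and 230.3 ± 35.9 TPM in cells (1.12, SE 0.11, adjusted p = 3.32e-06).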
